A study of Homo sapiens with 16 samples.

Results

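The genes described here are 9 listed sterol exporters, targets and receptors of the liver X receptor (LXR) system: ABCA1, ABCG1, ABCG4, MYLIP, LPCAT3, APOE, PLTP, NR1H2 and NR1H3. They were taken by the gene symbol in the array's annotation, and every probe set carrying only that symbol was used. Of the 9 genes, 8 had such a probe set, with 22 probe sets among them, out of 18239 genes and 49293 probe sets in the series. NR1H2, which encodes LXR beta, is not analysed here. All 8 measured genes passed the filter on dim signal and were among the 13680 genes tested.

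The arrays measured total RNA of SK-N-SH, an established human neuroblastoma cell line, on the Affymetrix Human Genome U219 array. Cells were exposed to 10 µM risperidone, an antipsychotic that blocks dopamine and serotonin receptors, for 6, 24 or 48 h, and were compared with untreated cells of the same line. Each of the 4 groups had 4 arrays, 16 in all. The protocol gives the solvent, DMSO, to the controls while the sample labels call them untreated, and no harvest time is given for them. No untreated arrays are labelled for each exposure time, so drug exposure and time in culture cannot be told apart. The labels call the 4 arrays of a group biological replicates without describing separate cultures, so a p-value here reflects only how these samples spread, which may be technical.

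LXR alpha (NR1H3) and LXR beta (NR1H2) are nuclear receptors that bind oxysterols, work as heterodimers with the retinoid X receptors, and switch on genes that move cholesterol out of cells. ABCA1 hands cholesterol and phospholipid to lipid-poor apolipoproteins, while ABCG1 and ABCG4 pass it on to more mature lipoprotein particles. APOE is the main cholesterol carrier of the brain, PLTP transfers phospholipids between lipoproteins, MYLIP is the ubiquitin ligase that sends the low-density lipoprotein receptor for degradation, and LPCAT3 builds polyunsaturated phospholipids. Cultured neurons and glia use these proteins to supply and dispose of membrane cholesterol.

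The sequences just upstream of the start site were searched for 3 short motifs, because ABCA1 is a textbook target of LXR through a direct repeat in this stretch. RefSeq on GRCh38.p14 gave windows of 300 bases, 250 before and 50 after the start, for 8 of the 9 genes, all but ABCG1, 15 windows in all. Below are the 250 bases before the start of ABCA1 (chr9:104928156-104928405, minus strand), MYLIP (chr6:16128836-16129085, plus strand) and LPCAT3 (chr12:7018477-7018726, minus strand), written 5′ to 3′ on the gene's strand. They are shown because ABCA1's window holds the repeat, while MYLIP and LPCAT3, also LXR targets with a called change, give windows without it. Capitals mark matches to a loose form of the direct repeat with 4 bases between its half-sites (DR4), the E-box CACGTG and the GC box GGGCGG on either strand.
ABCA1: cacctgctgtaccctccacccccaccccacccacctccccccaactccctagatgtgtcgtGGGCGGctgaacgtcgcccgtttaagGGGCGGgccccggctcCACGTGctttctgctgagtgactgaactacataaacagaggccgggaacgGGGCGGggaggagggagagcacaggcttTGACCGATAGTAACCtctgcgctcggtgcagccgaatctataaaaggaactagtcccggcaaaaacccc
MYLIP: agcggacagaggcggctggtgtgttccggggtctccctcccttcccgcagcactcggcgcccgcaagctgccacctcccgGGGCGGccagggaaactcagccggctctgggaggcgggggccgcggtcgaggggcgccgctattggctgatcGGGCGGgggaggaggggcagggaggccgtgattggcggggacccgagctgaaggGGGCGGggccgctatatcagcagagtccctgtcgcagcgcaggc
LPCAT3: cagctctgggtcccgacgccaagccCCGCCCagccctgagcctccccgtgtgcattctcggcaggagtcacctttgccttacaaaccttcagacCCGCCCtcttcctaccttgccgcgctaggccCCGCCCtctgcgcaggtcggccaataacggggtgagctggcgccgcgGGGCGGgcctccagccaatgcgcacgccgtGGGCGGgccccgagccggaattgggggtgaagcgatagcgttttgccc

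Among these 15 windows, the DR4-like repeat was found in that of ABCA1, as TGACCGATAGTAACC on the gene's strand, 55 to 69 bases upstream of the start. Of 35116 windows of the same length over all genes, 84 held a match, or 0.239%. The E-box, found 142 to 147 bases upstream in ABCA1, was in 7.26% of all windows, and the GC box in 45%. ABCA1 and MYLIP each had 3 GC boxes and LPCAT3 had 5, and no matches overlapped. A match is a description of the letters and not evidence of a bound site. ABCA1's repeat in this stretch was known beforehand, so finding it there is not a new result. Repeats outside these windows were not searched.

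Values are log2 signals after robust multi-array averaging (RMA), on which a difference is the log2 of a fold change. For each gene the brightest probe set was tested with limma over all 16 arrays, with Benjamini-Hochberg adjusted p under 0.05 as the threshold, and the 3 comparisons with untreated cells share the same 4 untreated arrays. Array medians lay between 4.5 and 4.62, and correlations within groups were 0.996 to 0.999. The threshold was passed by 53.3% of all genes at 6 h, 52.1% at 24 h and 57% at 48 h, and against this background the members' counts were 5 of 8, 5 of 8 and 4 of 8. ABCG1 and LPCAT3 were higher than in untreated cells at all 3 times, which 24% of all genes also were. ABCA1 and APOE were lower at all 3 times, which 13% of all genes also were, and MYLIP was lower at 6 and 24 h. The members' median log2 change was 0.02 at 6 h, 0.01 at 24 h and -0.06 at 48 h, against 0.09, 0.09 and 0.08 for all genes.

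**Figure D1:**
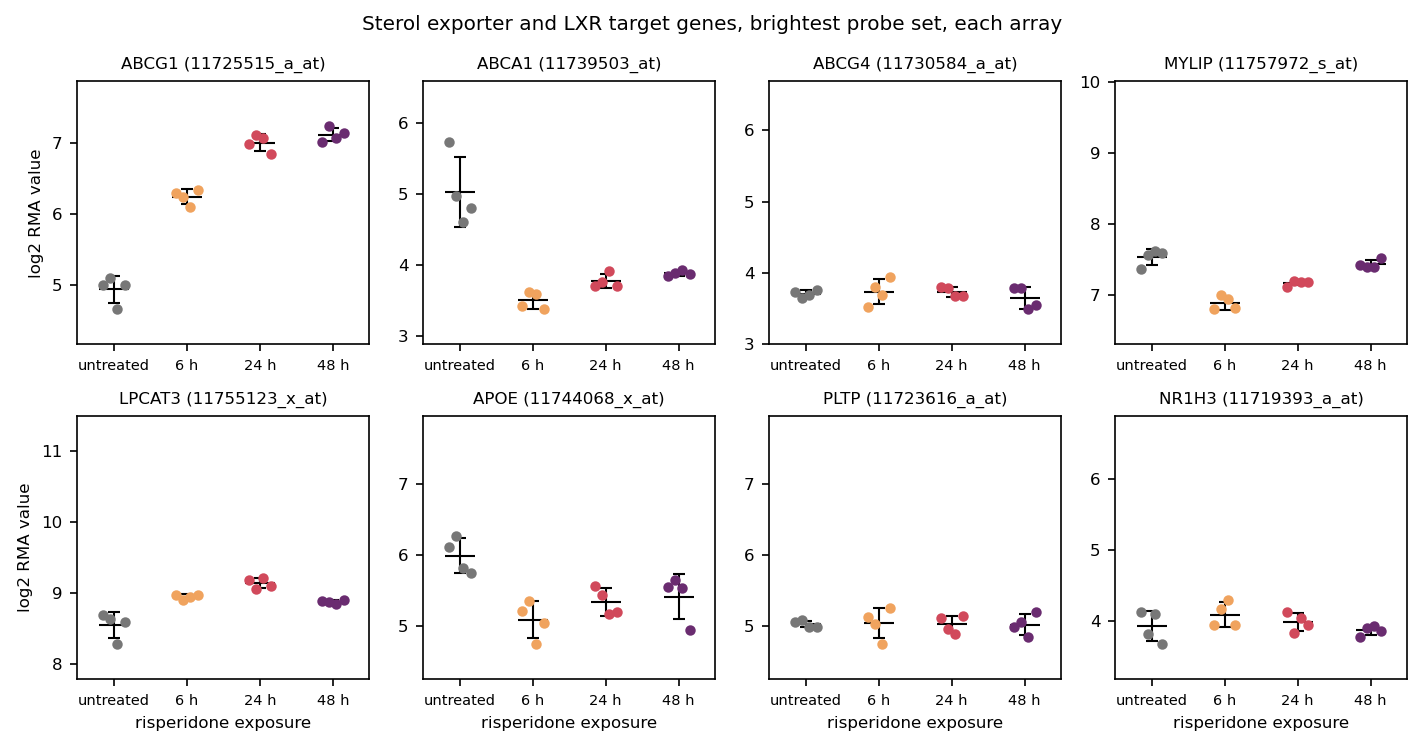
Log2 RMA value (vertical axis, same span in every panel) of the brightest probe set of each measured member in each array, by exposure (horizontal axis); points are arrays, the long bar is the mean and the whiskers the SD of 4 arrays. ABCG1 climbs from untreated cells to 24 h, ABCA1 and APOE lie below untreated cells at every time, and the treated arrays of ABCG4, PLTP and NR1H3 overlap the untreated ones.

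ABCG1 had the largest rises of the 8 measured members at 6, 24 and 48 h. Its probe set 11725515_a_at read 5.00, 5.10, 4.67 and 5.00 in untreated cells, 6.30, 6.24, 6.10 and 6.34 at 6 h, 6.99, 7.12, 7.07 and 6.85 at 24 h, and 7.02, 7.24, 7.08 and 7.14 at 48 h. The 12 treated arrays all lay above the 4 untreated ones, the 6 h arrays all lay below the later ones, and the 24 and 48 h arrays overlapped. The log2 change was 1.30 ± 0.09 (SE) at 6 h, a 2.47-fold rise (limma adjusted p = 1.14e-09). It was 2.07 ± 0.09 at 24 h, or 4.18-fold (adjusted p = 3.52e-12), and 2.18 ± 0.09 at 48 h, or 4.52-fold (adjusted p = 1.25e-12). In order of size among all genes that were higher, this placed ABCG1 30th at 6 h, 8th at 24 h and 10th at 48 h.

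Between exposure times ABCG1 rose further after 6 h. It was 0.76 ± 0.09 higher at 24 h than at 6 h (limma adjusted p = 0.00014) and 0.88 ± 0.09 higher at 48 h than at 6 h (adjusted p = 1.29e-06). The difference of 48 h from 24 h was 0.11, with a 95% interval of -0.07 to 0.29, and did not pass the test (adjusted p = 0.368). In the comparison of 24 h with 6 h 2.4% of all genes passed the test, and 8 genes had a larger rise than ABCG1.

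The other ABCG1 probe sets differed in level and in size of change. Array values for 11725517_x_at were 4.28, 4.31, 4.13 and 4.03 in untreated cells, 5.65, 5.50, 5.59 and 5.54 at 6 h, 6.53, 6.45, 6.57 and 6.28 at 24 h, and 6.80, 6.66, 6.58 and 6.65 at 48 h, again with no treated array in the untreated range. Its log2 changes were 1.38, 2.27 and 2.49 at 6, 24 and 48 h, and those of 11725516_s_at were 1.10, 1.72 and 2.03. The remaining probe sets of the gene gave smaller changes. 11750659_a_at changed by 0.39, 0.75 and 0.78, each called in the fit of all probe sets. 11726492_a_at was called at 24 h only (0.35, adjusted p = 0.00418) and had 0.20 at 6 h and 0.16 at 48 h. With the mean of all 5 probe sets in place of the brightest, the gene's changes were 0.87, 1.43 and 1.53 and all stayed called.

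ABCA1, the other main cholesterol exporter of the list, went the opposite way. Probe set 11739503_at read 5.73, 4.97, 4.60 and 4.80 in untreated cells, 3.42, 3.62, 3.59 and 3.38 at 6 h, 3.70, 3.76, 3.91 and 3.70 at 24 h, and 3.84, 3.88, 3.93 and 3.87 at 48 h. No treated array reached the lowest untreated one, and the untreated arrays spread more (SD 0.49, n = 4) than any treated group, with replicate 1 the highest. ABCA1 fell by 1.52 ± 0.16 at 6 h (limma adjusted p = 4.84e-07), by 1.26 ± 0.16 at 24 h (adjusted p = 4.59e-06) and by 1.15 ± 0.16 at 48 h (adjusted p = 9.48e-06) on the log2 scale. When each of the 16 arrays was left out in turn, all 3 falls stayed called. All 4 arrays at 6 h lie under the limit of 3.65 that marked dim genes, so the measured size of the fall is limited by the floor of the array.

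The ABCA1 probe sets did not all show it. 11760079_at and 11739502_a_at read between 3.25 and 3.64 in every array, near the floor of the array, and passed the test in no comparison; their changes lay between -0.14 and 0.08. With the mean of the 3 probe sets the ABCA1 change was -0.55, -0.47 and -0.41 at 6, 24 and 48 h, still called. The 6 h arrays of 11739503_at all lay below the later ones, but the differences between exposure times did not pass the test, the nearest being 0.38 ± 0.16 at 48 h against 6 h (adjusted p = 0.0812). That difference was called without untreated replicate 1 (adjusted p = 0.0012) or 3, with array weights and with only the 8 arrays compared.

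**Figure D2:**
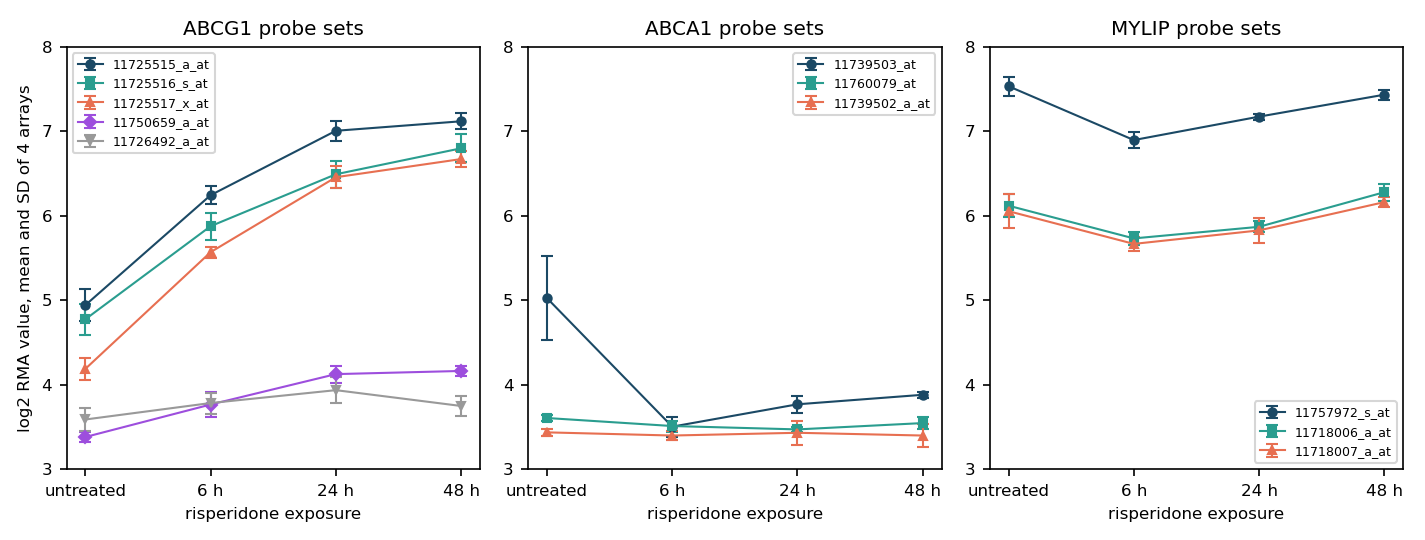
Mean log2 RMA value with SD of 4 arrays (vertical axis) of every probe set of ABCG1, ABCA1 and MYLIP, by exposure (horizontal axis). Of the ABCG1 probe sets 3 rise by over 1 log2 unit, 1 of the 3 ABCA1 probe sets changes while the others stay near the floor, and the 3 MYLIP probe sets share a dip at 6 h.

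ABCG4, a close relative of ABCG1 found mainly in neurons, was not called at any time. Its brightest probe set, 11730584_a_at, read 3.64 to 3.75 in untreated cells, 3.51 to 3.94 at 6 h, 3.67 to 3.79 at 24 h and 3.49 to 3.78 at 48 h, so every group overlapped. The 95% intervals of its 3 changes together ran from -0.23 to 0.21, and its other probe sets read 3.18 to 3.61. These levels are near the floor, where a change in a scarce transcript may not be measurable.

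Other genes moved alongside, and their values are given here because their part in these results was not tested. Markers of the mesenchymal, substrate-adherent cell state that SK-N-SH cultures contain fell in 6 of 7 tested genes at each time. This is 85.7%, against 16.7%, 16.9% and 21% of all genes at 6, 24 and 48 h. Their median log2 change was -3.30 at 6 h, -3.19 at 24 h and -3.27 at 48 h. The summed level of the 7, on the linear scale, ranged from 17930 to 20121 in untreated arrays, 10525 to 11171 at 6 h, 10627 to 10817 at 24 h and 10730 to 11306 at 48 h. TWIST1 and VIM set most of this sum, averaging 12.60 and 12.06 in log2 at 6 h, against 7.16 for SNAI2, the next highest. Falls in the other markers therefore hardly show in it. PRRX1, a transcription factor of that state, averaged 3.98 at 6 h, 3.96 at 24 h and 3.86 at 48 h. In untreated cells it averaged 9.07. TWIST1 was the marker that did not fall. Markers of the adrenergic neuroblast state rose in 5, 4 and 4 of 5 genes at 6, 24 and 48 h. These are 100%, 80% and 80%, against 36.6%, 35.3% and 36% of all genes. Their summed levels were 9735 to 10140 in untreated arrays, 12602 to 13607 at 6 h, 13255 to 13759 at 24 h and 14353 to 15629 at 48 h. In a bulk sample fewer cells of a type and less RNA per cell cannot be told apart.

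The summed levels of both marker lists overlapped between 6 and 24 h. Macrophages, in which ABCA1 and ABCG1 are best known, had all 5 of their markers below the dim limit, with mean log2 levels of 3.25 to 3.41 over the arrays. Endothelial and hepatocyte markers averaged 3.45 to 3.85, close to that limit. Of 3 glial markers tested 1, 2 and 1 rose at 6, 24 and 48 h. These are 33.3%, 66.7% and 33.3%, against 36.6%, 35.3% and 36% of all genes. S100B rose by 0.61, 0.57 and 0.39, SOX10 was called at 24 h only (0.27), and GFAP was called at no time.

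MYLIP had a transient change. Probe set 11757972_s_at read 7.37, 7.56, 7.62 and 7.59 in untreated cells, 6.81, 7.01, 6.95 and 6.82 at 6 h, 7.12, 7.20, 7.19 and 7.19 at 24 h, and 7.42, 7.40, 7.40 and 7.52 at 48 h. The 4 groups formed separate bands except that the 48 h arrays overlapped the untreated ones. MYLIP fell by 0.64 ± 0.06 at 6 h (limma adjusted p = 1.11e-07) and by 0.36 ± 0.06 at 24 h (adjusted p = 7.72e-05) on the log2 scale. At 48 h the change was -0.10 ± 0.06 and missed the threshold (adjusted p = 0.165).

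The return of MYLIP was itself tested between times. It was 0.26 ± 0.06 higher at 48 h than at 24 h (limma adjusted p = 0.00347), and 0.54 ± 0.06 higher at 48 h than at 6 h (adjusted p = 4.39e-06). The step of 0.28 ± 0.06 at 24 h against 6 h (adjusted p = 0.0191) was less firm: it was lost when 24 h replicate 2, 3 or 4 or 6 h replicate 1 or 4 was left out (adjusted p = 0.0535 to 0.0681). The 48 h result turned on the processing, since MYLIP was called lower there with cyclic loess (-0.21, adjusted p = 0.0018), with array weights (-0.14, adjusted p = 0.049) and without untreated replicate 1 (-0.16, adjusted p = 0.0225). The mean of its probe sets gave 0.06 at 48 h, not called.

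The other MYLIP probe sets kept this order. 11718006_a_at had log2 changes of -0.39 at 6 h, -0.25 at 24 h and 0.16 at 48 h, the first pair called, and 11718007_a_at had -0.39, -0.23 and 0.11, called at 6 h. From 24 to 48 h both rose, by 0.41 (adjusted p = 0.00042) and by 0.34 (adjusted p = 0.0126) in the fit of all probe sets.

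LPCAT3 rose at all times, by less. Probe set 11755123_x_at read 8.69, 8.63, 8.29 and 8.59 in untreated cells, 8.98, 8.91, 8.95 and 8.97 at 6 h, 9.18, 9.06, 9.21 and 9.10 at 24 h, and 8.89, 8.87, 8.85 and 8.91 at 48 h. All treated arrays exceeded all untreated ones, and the 24 h arrays were the highest. The change was 0.40 ± 0.07 at 6 h (limma adjusted p = 8.9e-05), 0.59 ± 0.07 at 24 h (adjusted p = 1.38e-06) and 0.33 ± 0.07 at 48 h (adjusted p = 0.000463). LPCAT3 was 0.26 ± 0.07 lower at 48 h than at 24 h (log2 change -0.26, adjusted p = 0.00858), while the 24 h against 6 h difference was not called (0.19, adjusted p = 0.206). That difference was called with the mean of the probe sets (0.20, adjusted p = 0.0396), with array weights (adjusted p = 0.0354) and without untreated replicate 3 (adjusted p = 0.0307).

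LPCAT3 has 4 further probe sets. 11746281_a_at was called at 24 h (0.38) and 48 h (0.20), and 11761527_a_at at 24 h (0.60) and 48 h (0.47), while 11757008_a_at and 11757009_x_at were called at no time, with changes of -0.03 to 0.25. With the mean of the 5 probe sets the gene's change was 0.19, 0.39 and 0.23, called at each time.

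APOE rested on 1 probe set, 11744068_x_at, of a kind that may hold probes matching other transcripts. It read 6.11, 6.27, 5.82 and 5.75 in untreated cells, 5.21, 5.35, 4.75 and 5.04 at 6 h, 5.56, 5.43, 5.16 and 5.19 at 24 h, and 5.54, 5.64, 5.53 and 4.94 at 48 h. No treated array reached the untreated range, though the 3 treated groups overlapped each other. On the log2 scale APOE fell by 0.90 ± 0.16 at 6 h (limma adjusted p = 0.000147), by 0.65 ± 0.16 at 24 h (adjusted p = 0.00239) and by 0.58 ± 0.16 at 48 h (adjusted p = 0.00512). No difference between times was called; that of 48 h against 6 h was 0.33 (adjusted p = 0.131), and 0.48 (adjusted p = 0.0167) without 48 h replicate 4, the lowest array of its group. It was also called with array weights and with the replicate number as a block.

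PLTP and NR1H3 were called in no comparison. PLTP read 4.99 to 5.08 in untreated cells, 4.75 to 5.25 at 6 h, 4.88 to 5.14 at 24 h and 4.84 to 5.20 at 48 h, with each treated group overlapping the untreated arrays. Its 3 log2 changes were 0.01, -0.01 and -0.01, with 95% intervals within -0.21 and 0.21. NR1H3, the gene of LXR alpha, read 3.68 to 4.13 in untreated cells, 3.94 to 4.29 at 6 h, 3.83 to 4.12 at 24 h and 3.77 to 3.93 at 48 h. Each treated group overlapped the untreated arrays, though the 48 h arrays lay just below the 6 h ones. Its changes were 0.16, 0.06 and -0.06, with intervals reaching from -0.27 to 0.37, and the 6 h value was called under array weights alone (0.26, adjusted p = 0.0386). The difference of 48 h from 6 h was -0.22 (adjusted p = 0.105), also called under array weights alone (-0.27, adjusted p = 0.0237).

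**Figure D3:**
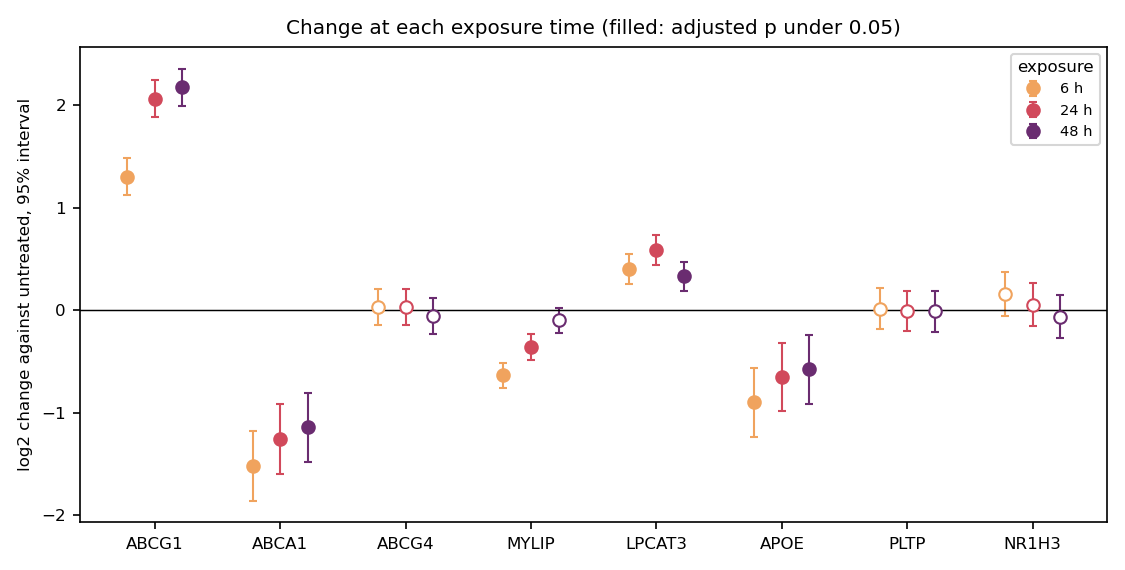
Log2 change against untreated cells (vertical axis) of the 8 measured members at 6, 24 and 48 h, with 95% intervals from the limma fit; filled points passed an adjusted p under 0.05. ABCG1 and LPCAT3 lie above 0 and ABCA1 and APOE below 0 at all times, while the MYLIP points approach 0.

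Counted by probe set, the members had 10 of 22 called at 6 h, 12 at 24 h and 9 at 48 h, against 32.9%, 32.5% and 37.6% of all probe sets. Probe sets of the same gene are not separate members. ABCG1 and LPCAT3 have the most of the 22, so counts by probe set weigh these genes more. Between times, 2 of the 8 genes passed at 24 h against 6 h, both higher, against 1.55% of all genes that were higher. For 48 h against 24 h, 2 of 8 genes passed, 1 in each direction, against 28.6% of all genes, and for 48 h against 6 h 2 of 8, against 33.6%. By probe set these counts were 6, 4 and 7 of 22, against 1.71%, 16.4% and 21.1%. The 6 probe sets higher at 24 h than at 6 h, against 0.734% of all probe sets, comprised 4 of ABCG1, 1 of MYLIP and 1 of LPCAT3.

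The calls over all genes leaned upward, and this lean depended on the scaling. Of the genes called at 6, 24 and 48 h, 68.7%, 67.6% and 63.1% were higher in the values as deposited. After cyclic loess between arrays these shares were 49.4%, 49.5% and 49%. ABCG1 and LPCAT3 stayed called higher and ABCA1 and APOE lower at all 3 times under cyclic loess, with ABCG1 at 1.18, 1.94 and 2.06 and ABCA1 at -1.58, -1.32 and -1.20.

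Around these members stand 91 further genes in 7 lists, of which 78 had a probe set and 64 were tested. At 6 h 19 were higher and 15 lower, at 24 h 18 and 17, and at 48 h 21 and 13. As shares of the 64 these are 29.7% and 23.4% at 6 h, 28.1% and 26.6% at 24 h, and 32.8% and 20.3% at 48 h, against 36.6% and 16.7%, 35.3% and 16.9%, and 36% and 21% of all genes. Their median change was 0.09, 0.04 and 0.06, close to that of all genes.

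Other textbook LXR targets changed little where tested. Of 18 listed, 14 had a probe set and 8 were bright enough to test. In limma 3 of the 8 were higher at 6 h, 2 at 24 h and 1 at 48 h. These are 37.5%, 25% and 12.5%, against 36.6%, 35.3% and 36% of all genes. At each time 0 were lower, against 16.7%, 16.9% and 21% of all genes. At an unadjusted p under 0.05 the lower counts were 0, 1 and 0. SMPDL3A, too dim to test, averaged 3.63 in untreated cells and 3.14, 3.23 and 3.19 at 6, 24 and 48 h. SREBF1, the transcription factor through which LXR drives fatty acid synthesis, had log2 changes of 0.23 at 6 h (adjusted p = 0.0505, not called), 0.33 at 24 h and 0.37 at 48 h. The stearoyl-CoA desaturase gene SCD was called at 6 h (0.21), as was APOC1, an apolipoprotein gene next to APOE (0.35). At 24 and 48 h APOC1 had -0.08 and -0.16, not called. These sizes are well under those of ABCG1 and ABCA1.

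Of 12 tested partners and coregulators of LXR, 3, 4 and 7 were called higher at 6, 24 and 48 h, and 1, 2 and 1 lower. The higher shares were 25%, 33.3% and 58.3%, against 36.6%, 35.3% and 36% of all genes. The lower shares were 8.33%, 16.7% and 8.33%, against 16.7%, 16.9% and 21%. NCOA1, a coactivator of nuclear receptors, rose by 0.12, 0.13 and 0.52 at 6, 24 and 48 h; the mean of its probe sets gave -0.017 at 24 h, not called. GPS2, a subunit of the NCoR corepressor complex, rose by 0.18, 0.19 and 0.46, and CREBBP, a histone acetyltransferase, had 0.00 at 6 h, fell by 0.16 at 24 h and rose by 0.34 at 48 h. Of the LXR heterodimer partners, RXRA was lower at each time (-0.33, -0.28 and -0.46) and RXRB was higher (0.32, 0.26 and 0.18).

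Of 7 tested genes of cholesterol synthesis or of oxysterol formation and breakdown, 4, 3 and 3 were higher at 6, 24 and 48 h. The 4 at 6 h, SC5D, DHCR7, EBP and LSS (0.45), belong to cholesterol synthesis. Of the oxysterol genes, CYP46A1 was called at no time and CYP7B1 was higher at 48 h only (0.27). Each time 1 was lower. The higher shares were 57.1%, 42.9% and 42.9%, against 36.6%, 35.3% and 36% of all genes. The lower share was 14.3% at each time, against 16.7%, 16.9% and 21%. SC5D, a late enzyme of cholesterol synthesis, rose by 0.53, 0.45 and 0.55. DHCR7, which makes cholesterol from its direct precursor, rose by 0.69, 0.31 and 0.45, and EBP rose by 0.49 and 0.28 at 6 and 24 h, with 0.10 at 48 h. The gene that fell was CYP27A1, the mitochondrial sterol hydroxylase that makes an LXR-activating oxysterol, at -0.60, -0.54 and -0.37. CH25H, another oxysterol-forming hydroxylase, was too dim to test.

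Other sterol-linked ABC transporters were mostly not called. In limma 1 of 8 was higher at each time, and 1, 1 and 0 were lower. The counts were the same at an unadjusted p under 0.05. The higher share was 12.5% at each time, against 36.6%, 35.3% and 36% of all genes. The lower shares were 12.5%, 12.5% and 0%, against 16.7%, 16.9% and 21%. The higher one was ABCA3, a lipid transporter of lysosome-related organelles, with 0.38, 0.36 and 0.59. ABCA5 was lower at 6 h (-0.41), and ABCB1, the drug efflux pump P-glycoprotein, was lower at 24 h (-0.23). Of those not called, ABCA2 and ABCG2 had group means of 3.67 to 3.94, near the dim limit of 3.65. A change may not be measurable there. ABCC1, also not called, was brighter, at 9.32 to 9.40.

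Genes of sterol uptake, storage and transport inside the cell had larger changes, in both directions. Of 16 tested, 6 were higher at each time and 5, 7 and 5 were lower. The higher share was 37.5% at each time, close to the 36.6%, 35.3% and 36% of all genes. The lower shares were 31.2%, 43.8% and 31.2%, against 16.7%, 16.9% and 21%. CAV1, the coat protein of caveolae, fell by 4.04, by 3.70 and by 3.94 on the log2 scale at 6, 24 and 48 h, alongside the mesenchymal markers above. SOAT1, which esterifies cholesterol for storage, fell by 1.45, by 1.41 and by 1.20. GRAMD1A, which carries cholesterol between the plasma membrane and the endoplasmic reticulum, rose by 0.62, 0.59 and 1.01. VLDLR and LRP8, lipoprotein receptors that bind APOE-containing particles and, like the low-density lipoprotein receptor, are degraded through MYLIP, rose by 0.65, 0.58 and 0.65 and by 0.22, 0.28 and 0.26. NPC1, the exporter of cholesterol from lysosomes, was lower at 24 h only (-0.33).

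Among apolipoproteins and lipoprotein remodelling genes 2, 0 and 2 of 9 were higher and 3, 3 and 2 lower in limma. At an unadjusted p under 0.05 there were also 0 higher at 24 h. The higher shares were 22.2%, 0% and 22.2%, against 36.6%, 35.3% and 36% of all genes. The lower shares were 33.3%, 33.3% and 22.2%, against 16.7%, 16.9% and 21%. CLU, which like APOE is a secreted lipid carrier of the brain, fell by 1.84, by 1.47 and by 1.39. LRPAP1, a chaperone of lipoprotein receptors, was lower at each time (-0.25, -0.12 and -0.30), and SORL1, a sorting receptor that binds APOE, was lower at 6 h (-0.57) and 24 h (-0.55). Of 7 lysophospholipid acyltransferases, the family in which LPCAT3 falls by function, 2, 2 and 1 were higher and 4, 3 and 4 were lower. Their higher shares were 28.6%, 28.6% and 14.3%, and their lower shares 57.1%, 42.9% and 57.1%, beside the same shares of all genes. MBOAT7 (-0.76, -0.66 and -1.06), MBOAT1 (-0.97, -0.95 and -1.24) and LPCAT2 (-0.61, -0.58 and -0.69) were lower at every time, opposite in sign to LPCAT3.

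**Figure D4:**
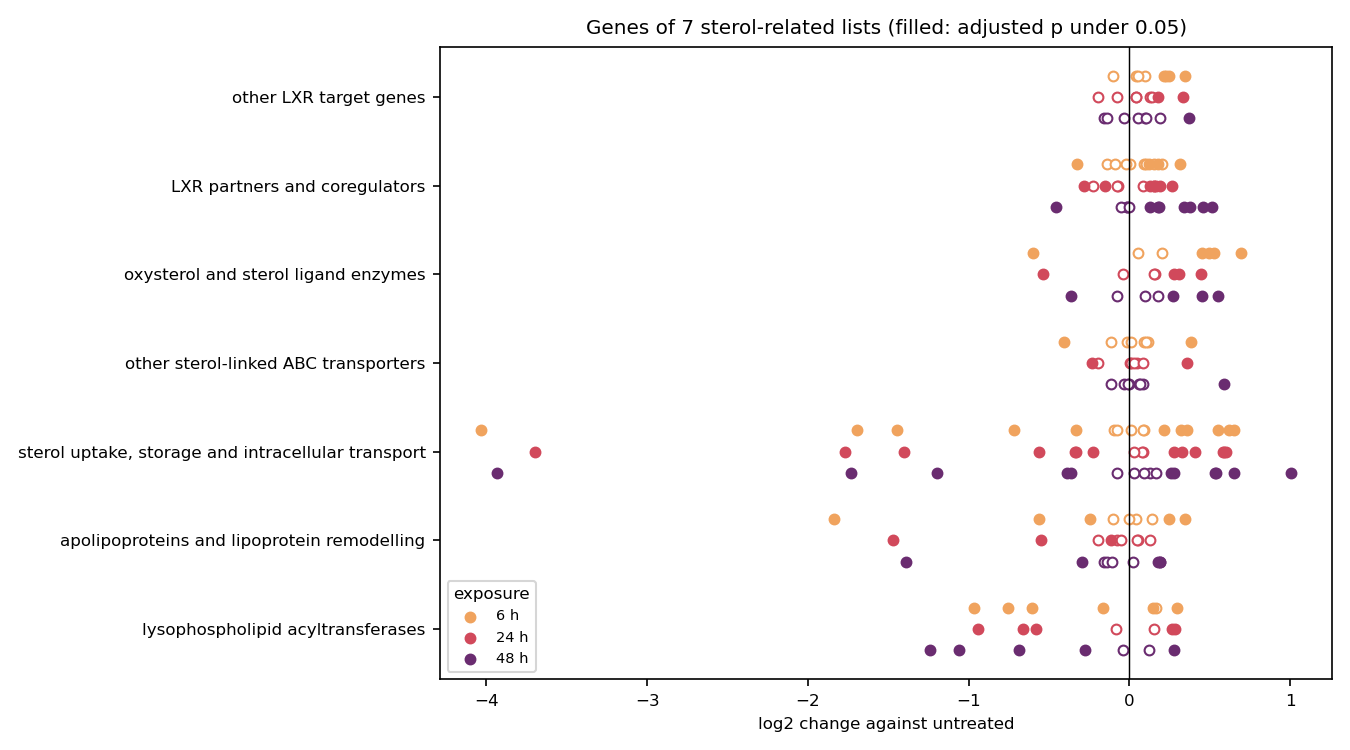
Log2 change against untreated cells (horizontal axis) of each tested gene of 7 lists (vertical axis), 1 row each for 6, 24 and 48 h from top to bottom; filled points passed an adjusted p under 0.05. Most genes lie within 1 log2 unit of 0, and the uptake, storage and transport list holds the gene furthest from 0, CAV1.

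The genes whose levels followed each member most closely over the 16 arrays were found by Pearson correlation, a description that mostly reflects the shared steps between groups and the shared untreated arrays. For ABCG1 they were NANOS1 (r = 0.988), CSPG5 (r = 0.983) and FBXW7 (r = 0.980), and 94 genes had r over 0.95. For ABCA1 they were CNTNAP2 (r = 0.959), TOX2 (r = 0.956) and DOCK11 (r = 0.953). CNTNAP2 had log2 changes of -1.48, -1.28 and -1.04 at 6, 24 and 48 h, close to those of ABCA1. MYLIP's transient course was most like that of ERMP1 (r = 0.959), AGTR1 (r = 0.95) and RGS10 (r = 0.941), and AGTR1 had changes of -0.93, -0.52 and 0.00.

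For LPCAT3 the nearest genes were CCDC136 (r = 0.956), VKORC1 (r = 0.954) and FKBP1B (r = 0.952), and for APOE they were PDLIM2, CFI and LMAN2 (r = 0.893 to 0.885). The members with no called change had weaker neighbours, with the highest r at 0.768 for ABCG4, 0.824 for PLTP and 0.869 for NR1H3.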

How the data were processed

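The authors deposited log2 expression values made by RMA, per the submitters' processing notes; the sources used here name no version or settings of it. RMA corrects background, equalizes the distributions of the arrays and combines the probes of a set, so depth has no count and precision is limited by the 4 arrays per group. The deposited table was used as given, without its 93 control probe sets. Of the others, 45253 carry 1 gene symbol, 1327 several and 2713 none; only those with 1 symbol were named. Each gene was represented by its brightest probe set, and the dimmest 25% of genes (mean under 3.65) were left out. limma 3.58.1 in R 4.3.3 fitted all 4 groups together with 6 contrasts, after a test on simulated data; all 49293 probe sets were fitted separately. Most genes named beside the members are the 3 of smallest moderated F-test p in each list, a few preset ones and the 3 most correlated with a member. Others, among them SMPDL3A, ABCA2, ABCG2, ABCC1, LSS, CYP46A1, CYP7B1, HDAC3 and LIPG, fall outside these rules. The members, lists and rules were chosen with earlier results of these data known. The main fit did not pair samples by replicate number. Deviations from group means in 24 same-numbered pairs correlated within -0.15 and 0.18, 8 of them above 0.1. Differently numbered pairs were not compared, so whether the numbers pair the samples was not tested. No batch or scan date is recorded in the labels or the table. Alternatives were other scalings, filters, thresholds and summaries, array weights, and leaving out each array.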

Additional observations from a re-analysis of the deposited data

Results flagged for a closer look

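In 4 of 88 groups of 4 arrays, over all probe sets of the members, 1 array was flagged as apart from the other 3. The flag takes the gap relative to the range of the group, so a small gap can pass where the others nearly coincide. Chance gives about 1 in 20. APOE read 4.94 in 48 h replicate 4, against 5.53 to 5.64 in the others. MYLIP probe set 11757972_s_at read 7.12 in 24 h replicate 1, against 7.19 to 7.20, and 7.52 in 48 h replicate 4, against 7.40 to 7.42. ABCA1 probe set 11760079_at read 3.42 in 24 h replicate 3, against 3.48 to 3.49.

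Levels differed between exposure times for 3 members in the limma contrasts between times. ABCG1 was 0.76 higher at 24 h and 0.88 higher at 48 h than at 6 h. MYLIP was 0.28 higher at 24 h than at 6 h, 0.26 higher at 48 h than at 24 h, and 0.54 higher at 48 h than at 6 h. For LPCAT3 the change at 48 h against 24 h was -0.26.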

How the results depend on the processing

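No member's called change turned its direction under any of the alternatives run. Requiring a change of at least 1.5-fold as well lowered the counts most: the related genes called became 12 at 6 h, 8 at 24 h and 10 at 48 h; the members 2 at 48 h, 1 at 24 h against 6 h, 0 at 48 h against 24 h and 1 at 48 h against 6 h; and their probe sets 6 at 6 h, 5 at 48 h, 3 at 24 h against 6 h, 0 at 48 h against 24 h and 3 at 48 h against 6 h. The 0 counts stand beside 2 members and 4 probe sets by adjusted p alone. With the dimmest 50% of genes left out, 3 of the members were tested, and 3, 3 and 2 were called at 6, 24 and 48 h and 3 by the F-test, because ABCA1, APOE and the uncalled members are too dim for that filter. An adjusted p of 0.01 left 1 member at 24 h against 6 h and 2 probe sets at 48 h against 24 h. Array weights gave 5 members at 48 h against 6 h and 7 probe sets at 48 h against 24 h; the cause was not tested. Leaving out 1 array at a time gave 5 members at 6 h and at 24 h, 4 to 5 at 48 h, 1 to 3 at 24 h against 6 h (1 without 24 h replicate 2, 3 or 4 or 6 h replicate 1 or 4), 2 at 48 h against 24 h and 2 to 3 at 48 h against 6 h. With the replicate number as a block, 5, 5 and 4 members, 10, 13 and 8 of their probe sets and 35, 36 and 33 related genes were called at 6, 24 and 48 h; among the members it changed the call of APOE at 48 h against 6 h alone (adjusted p = 0.0229). Of the related genes, HDAC3 at 48 h ranged from -0.073 to 0.13 with 1 array left out and was called, at 0.13 (adjusted p = 0.0246), without 48 h replicate 4, and the mean of the probe sets gave -0.21 for LIPG at 48 h (adjusted p = 0.00332) and -0.017 for NCOA1 at 24 h (not called, adjusted p = 0.777); the cause was not tested. Genes near the floor of the array, ABCG4 and the dimmer ABCA1 probe sets among them, are limited by signal over background.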
